A study of Sus scrofa with 12 samples.

Results

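PLAC8, RPUSD1, LOC100152327 and LOC396781 are 4 genes that were chosen from the stent comparisons of these same arrays, because their signals around the zotarolimus-eluting stent stood apart from those around the other stents. They are 4 of 6765 genes that had a probe set with no other gene symbol, and are read by 5 of the 23999 probe sets on the array, controls left out, since RPUSD1 has 2 probe sets and each of the others has 1. Because the stent differences chose these genes, they are given as a description, without a test.

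Coronary artery tissue of Yorkshire farm pigs was profiled 28 days after angioplasty and stent implantation. The groups were the zotarolimus-eluting stent (ZES), the sirolimus-eluting stent (SES) and the bare metal stent (BMS), with 4 arterial segments from 2 pigs in each, which makes 12 arrays and 6 pigs. For 5 of the pigs 1 segment came from the left anterior descending artery (LAD) and 1 from the right coronary artery (RCA), while 1 SES pig gave the RCA and the left circumflex artery (LCX). Arrays 1 and 2 of a stent type are from one pig and arrays 3 and 4 from the other. All pigs had injured and stented arteries, unstented vessel was not analysed here, no drug dose is stated in the sources used here, and each pig carried 1 stent type, so that pig and stent are nested. Zotarolimus is a sirolimus analog in which a tetrazole ring takes the place of a hydroxyl group, and both drugs inhibit the mTOR kinase.

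IgG antibodies are secreted by plasma cells and are built of heavy and light chains. An antibody gene is assembled from a V segment and joining segments, which are spliced to a C region. PLAC8 is a small cysteine-rich protein named after placenta and also made by leukocytes; in mice it is needed for normal killing of bacteria by neutrophils. RPUSD1 carries the domain of RNA pseudouridine synthases, enzymes that turn uridine in RNA into pseudouridine.

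LOC396781 (Entrez gene 396781) has the synonym IGHG, the heavy chain of IgG, in the RefSeq genes of assembly Sscrofa11.1, where it is not placed on a chromosome. LOC100152327 (Entrez gene 100152327) lies on chromosome 14 and has no descriptive name there. Its span overlaps 12 other RefSeq genes, of which 4 are V segments and 1 is a C region. Its named neighbours include SLC5A1 and SLC5A4 on one side and GNAZ, RAB36 and BCR on the other, genes that in the human genome lie near the immunoglobulin lambda locus. PLAC8 lies on chromosome 8 between COQ2 and COPS4, and RPUSD1 on chromosome 3 between CHTF18 and NARFL. Heavy chain genes of the IgG subclasses are near copies of each other, as are V segments, so these 2 probe sets may read more than 1 transcript.

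Arrays had been scaled alike, since the trimmed means of their linear signals ran from 500.15 to 500.17. Each array had 61.0% to 74.5% of its probe sets above background, which was set at the 95th percentile of 59 control probe sets without a spiked-in target. The smooth muscle genes ACTA2, TAGLN and CNN1 were above background on 12 of 12 arrays. MYH11 and the heart muscle gene MB had no probe set of their own. Of the heart muscle genes TNNC1, which slow skeletal muscle also makes, was above background on 12 of 12 arrays (7.11 to 13.82), MYL2 on 9 and TNNT2 on 5. A pair of arrays stood apart in the 28S ribosomal RNA control, ZES 2 at 14.10 and BMS 1 at 14.57, against 6.95 to 10.74 on the other arrays. The GAPDH control read near its 3′ end minus near its 5′ end, a gauge of RNA integrity and labelling, was 3.66 ± 0.19 with ZES, 2.71 ± 0.35 with SES and 4.16 ± 0.50 with BMS (log2, mean ± SD, n = 4). The spike-in controls read 15.30 ± 0.58 with ZES, 15.09 ± 0.43 with SES and 16.30 ± 0.38 with BMS.

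For 4 of the 5 probe sets all 4 ZES arrays lay outside the range of the other 8, with 3 higher and 1 lower. Over all 16799 probe sets tested the same held for 0.631%, with 0.292% higher and 0.339% lower. These values chose the genes, so nothing is read from the count. The exception was the second probe set of RPUSD1.

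**Figure D1:**
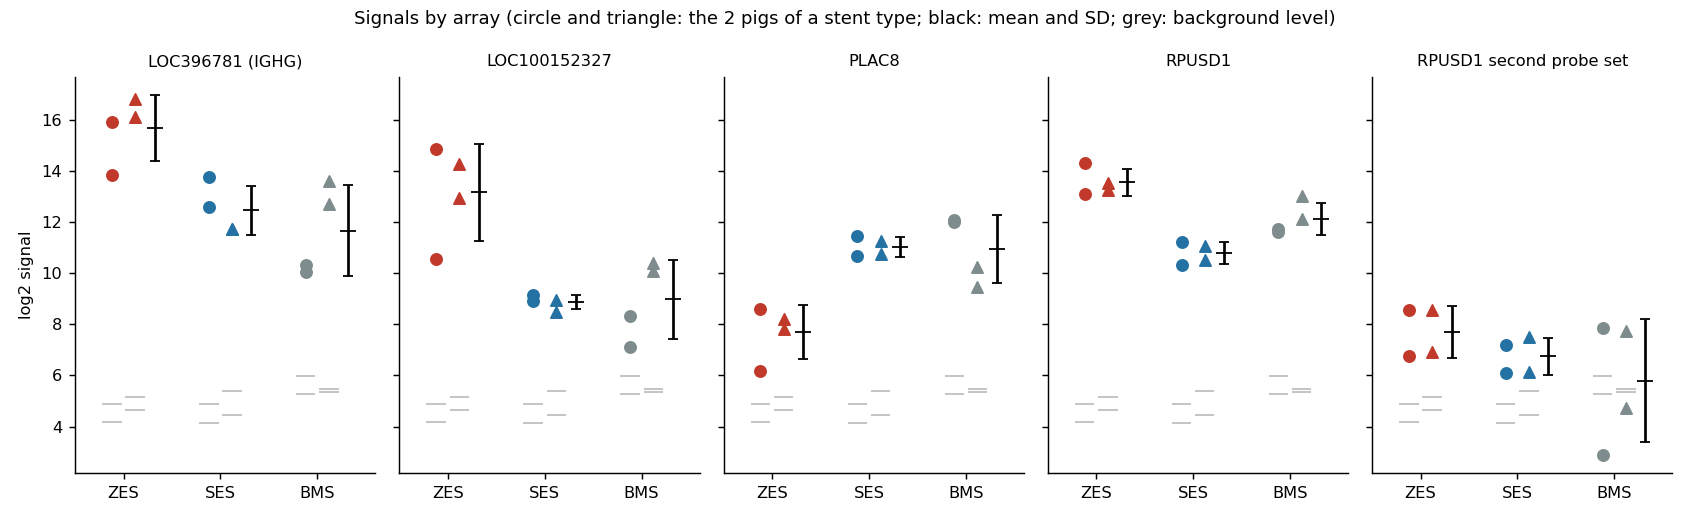
Log2 signal (vertical axis) of the 5 probe sets on the 12 arrays, by stent type. Circles are arrays 1 and 2 and triangles arrays 3 and 4 of a stent type, black bars are mean ± SD (n = 4) and grey ticks are the background level of each array; in the first 4 panels the ZES points lie outside the range of the other 8.

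The IgG heavy chain gene LOC396781 gave the brightest signals on the ZES arrays. Its log2 signal was 13.84, 15.94, 16.13 and 16.83 on ZES 1 to 4, against 13.75, 12.60, 11.73 and 11.75 on SES 1 to 4 and 10.05, 10.31, 12.73 and 13.60 on BMS 1 to 4. The ZES range cleared the SES range by 0.084 and the BMS range by 0.23, so ZES 1 stood close to SES 1 and BMS 4, while the other ZES arrays were higher by a wide margin. The means were 15.68 ± 1.29 with ZES, 12.46 ± 0.95 with SES and 11.67 ± 1.76 with BMS (SD, n = 4). ZES minus SES was 3.22 ± 0.73 and ZES minus BMS was 4.01 ± 0.73 (log2, estimate ± SE), which correspond to 9.35-fold and 16.1-fold. In all stent comparisons the SE takes the segments of a pig as nearly independent, with a within-pig correlation of -0.032. It therefore mostly measures how segments vary, not how pigs vary. SES minus BMS was 0.79 ± 0.73, with ranges that overlapped.

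The 2 pigs of a stent type also differed in this gene. Pig means were 14.89 and 16.48 with ZES, 13.18 and 11.74 with SES and 10.18 and 13.16 with BMS. The gap of 2.98 between the BMS pigs was larger than the SES minus BMS difference. Without the pig of BMS 1 and 2 the ZES minus BMS difference was 2.52, and without the pig of BMS 3 and 4 it was 5.50.

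LOC100152327, which spans V segments, was also highest on the ZES arrays. Its log2 signal was 10.55, 14.87, 12.96 and 14.26 on ZES 1 to 4, against 8.91, 9.13, 8.97 and 8.49 on SES 1 to 4 and 7.11, 8.33, 10.08 and 10.40 on BMS 1 to 4. ZES 1 was again the lowest ZES array, 0.15 above BMS 4. The means were 13.16 ± 1.91 with ZES, 8.87 ± 0.27 with SES and 8.98 ± 1.54 with BMS (SD, n = 4). ZES minus SES was 4.29 ± 0.76, or 19.5-fold, and ZES minus BMS was 4.18 ± 0.76, or 18.2-fold. SES minus BMS was -0.10 ± 0.76. The SES arrays lay close together, between 8.49 and 9.13, while the BMS pigs differed by 2.52. Without both arrays of high 28S signal the ZES minus SES and ZES minus BMS differences were 3.72 and 2.99.

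For LOC396781 and LOC100152327, Pearson's r over the 12 arrays was 0.93, and 0.82 after the mean of each stent type was removed. The second value does not use the differences between stents, but arrays of one pig share their animal, so the 12 points are not independent. In both genes the BMS pig of arrays 3 and 4 was above the BMS pig of arrays 1 and 2, and ZES 1 was the lowest ZES array. The order of arrays differed elsewhere. SES 1 was the highest SES array for LOC396781 but lay below SES 2 and 3 for LOC100152327, and the highest ZES array was ZES 4 for LOC396781 and ZES 2 for LOC100152327.

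**Figure D2:**
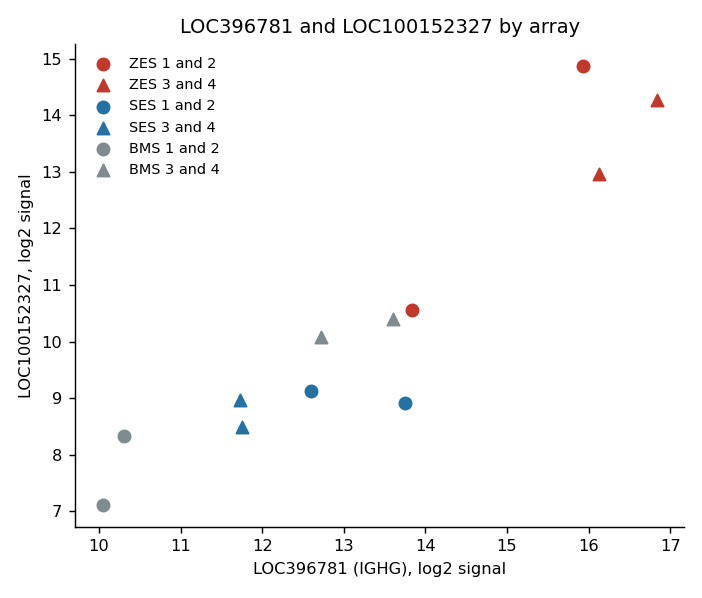
Log2 signal of LOC396781 (horizontal axis) and LOC100152327 (vertical axis), 1 point per array, with the stent type as colour and the pig as marker shape. The points run from BMS 1 at the lower left to ZES 2, 3 and 4 at the upper right, with ZES 1 beside BMS 4.

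The other genes of antibody-secreting and B cells showed no call in either comparison. Of 36 listed genes 12 had a probe set of their own and 10 were tested. In ZES minus SES 0 of the 10 rose and 0 fell in limma at an adjusted p under 0.05, where 0.0714% of all probe sets passed. At an unadjusted p under 0.05, 0 were higher and 2 lower. Of all probe sets 10.0% had such a p, with 5.66% higher and 4.38% lower. The median difference of the list was 0.039, against 0.010 over 5793 genes. In ZES minus BMS 0 of the 10 passed in limma, as for 0% of all probe sets, and 3 were higher and 0 lower at an unadjusted p under 0.05, where 8.99% of all probe sets lay, with 4.72% higher and 4.27% lower. The list median there was 0.68, against 0.012 over all genes.

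JCHAIN, which joins IgM and IgA units into polymers, is made by antibody-secreting cells and was named after its values were seen. Its log2 signal was 10.91, 13.78, 10.69 and 9.81 on ZES 1 to 4, against 10.64, 10.86, 10.90 and 10.09 on SES 1 to 4 and 7.75, 9.62, 10.45 and 11.02 on BMS 1 to 4. ZES 2 stood well above all other arrays, while the other ZES arrays lay at 9.81 to 10.91, and ZES 4, the brightest array for LOC396781, had the lowest ZES signal. BMS 1 was the lowest array, and the other BMS arrays lay at 9.62 to 11.02. ZES 2 and BMS 1 are the pair of arrays that stood apart in the ribosomal RNA control. The JCHAIN differences and r values that follow include both arrays, and their part in these values was not tested. ZES minus SES was 0.68 ± 0.71 (limma adjusted p = 0.815) and ZES minus BMS 1.59 ± 0.71 (limma adjusted p = 0.527). With stent means removed, JCHAIN had r = 0.38 with LOC396781 and 0.62 with LOC100152327 over the 12 arrays.

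TNFRSF17, the plasma cell receptor BCMA, was above background on all 4 ZES arrays, 2 SES arrays and 1 BMS array, with 6.60 ± 1.01, 4.67 ± 2.17 and 3.97 ± 2.12 (SD, n = 4) in that order. Its ZES minus SES difference of 1.93 ± 1.15 did not pass (limma adjusted p = 0.613). Nor did its ZES minus BMS difference of 2.63 ± 1.15 (limma adjusted p = 0.519). CD79B, a chain of the B cell receptor complex, had 4.50 ± 1.69 with ZES and 7.02 ± 1.77 with SES, a difference of -2.52 ± 0.96 (limma adjusted p = 0.375). It was above background on 2 ZES arrays, 4 SES arrays and 1 BMS array. The kinase PIM2 and SEC11C, a subunit of the signal peptidase, had ZES minus SES differences of -1.56 ± 0.55 and -0.52 ± 0.28 (limma adjusted p = 0.315 and 0.551). Their ZES minus BMS differences were 0.81 ± 0.55 and 0.44 ± 0.28 (limma adjusted p = 0.689 and 0.660). The list mean ranged from 9.58 to 9.83 on ZES arrays, 9.48 to 10.13 on SES arrays and 8.78 to 9.12 on BMS arrays. In bulk tissue, fewer cells of a type and less RNA per cell cannot be told apart.

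**Figure D3:**
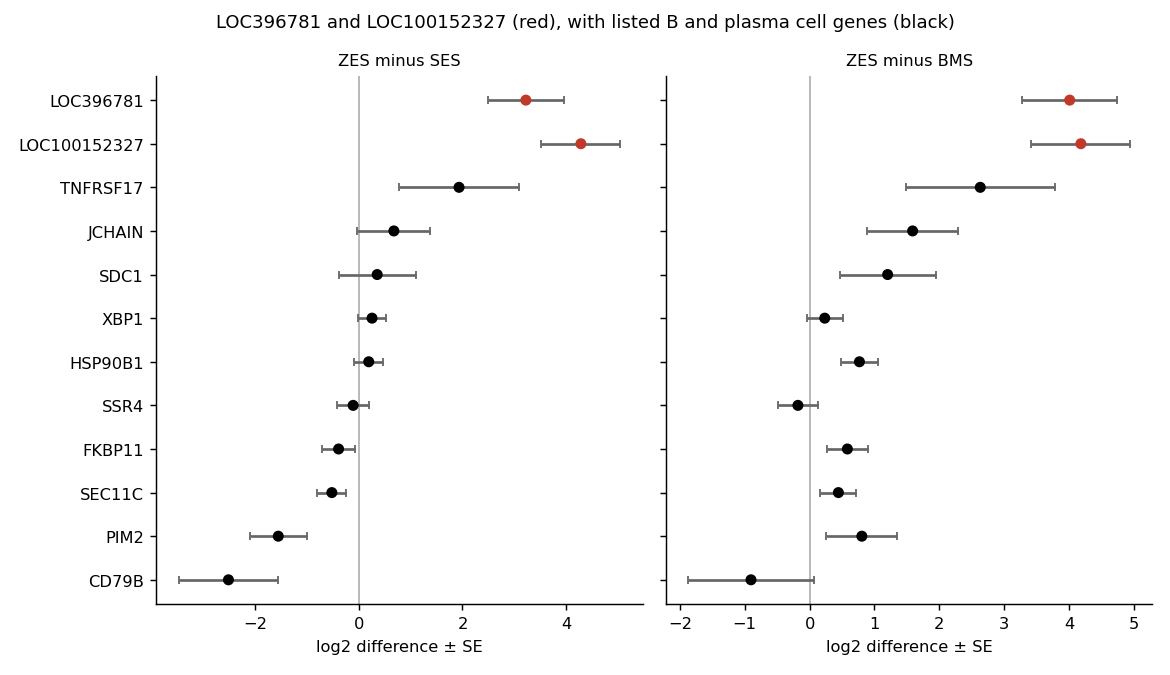
Log2 difference ± SE (horizontal axes) for LOC396781 and LOC100152327 in red and for the 10 tested B and plasma cell genes in black, ZES minus SES on the left and ZES minus BMS on the right. In ZES minus SES the red points are at 3.22 and 4.29 and the black points run between -2.52 for CD79B and 1.93 for TNFRSF17.

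PLAC8 was the gene with the lower signal around ZES. Its log2 signal was 8.59, 6.18, 8.20 and 7.81 on ZES 1 to 4, against 11.45, 10.68, 11.27 and 10.74 on SES 1 to 4 and 12.004, 12.10, 9.45 and 10.25 on BMS 1 to 4. All ZES arrays were below all others, the SES range was cleared by 2.09 and the BMS range by 0.86, and each array was above background. The means were 7.69 ± 1.06 with ZES, 11.03 ± 0.38 with SES and 10.95 ± 1.31 with BMS (SD, n = 4). ZES minus SES was -3.34 ± 0.57 and ZES minus BMS was -3.26 ± 0.57, so that the signal was 10.1-fold and 9.57-fold lower with ZES. SES minus BMS was 0.083 ± 0.57. ZES 2, of high 28S signal, was the lowest array. Without it and BMS 1 the ZES minus SES difference was -2.84 and the ZES minus BMS difference -2.40. The BMS pigs differed by 2.20, and the ZES minus BMS difference was -2.16 without the pig of BMS 1 and 2 and -4.36 without the pig of BMS 3 and 4.

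Neutrophil and monocyte genes, which mark cells known to make PLAC8, had no call in ZES minus SES. Of 27 listed genes 14 were on the array and 11 were tested. In ZES minus SES 0 rose and 0 fell in limma, where 0.0714% of all probe sets passed. At an unadjusted p under 0.05, 0 were higher and 1 lower, against 5.66% and 4.38% of all probe sets. The list median was -0.23, against 0.010 over all genes. In ZES minus BMS 0 passed in limma, as for 0% of all probe sets. At an unadjusted p under 0.05, 5 of 11 were higher and 1 lower, against 4.72% and 4.27% of all probe sets. The list median there was 0.78, against 0.012 over all genes.

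The neutrophil calcium-binding protein S100A12 had 11.07 ± 3.04 with ZES, 11.67 ± 2.14 with SES and 8.18 ± 2.16 with BMS (SD, n = 4). Its ZES minus SES difference was -0.60 ± 1.29 (limma adjusted p = 0.925) and its ZES minus BMS difference 2.88 ± 1.29 (limma adjusted p = 0.529). NCF1, a subunit of the NADPH oxidase, had a ZES minus SES difference of -0.64 ± 0.42 and the transcription factor CEBPB one of -0.81 ± 0.76 (limma adjusted p = 0.661 and 0.790). In ZES minus BMS they were at 0.78 ± 0.42 and 0.71 ± 0.76 (limma adjusted p = 0.611 and 0.822). TREM1, an activating receptor of neutrophils and monocytes, was above background on 0 ZES arrays, 2 SES arrays and 4 BMS arrays. Its ZES minus SES difference was -2.94 ± 0.94 (limma adjusted p = 0.264) and its ZES minus BMS difference -3.80 ± 0.94 (limma adjusted p = 0.360). It was the 1 list gene lower at an unadjusted p under 0.05 in each comparison. The list mean ranged from 7.11 to 9.30 on ZES arrays, 7.83 to 9.97 on SES arrays and 6.58 to 8.25 on BMS arrays.

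Other leukocyte lists were read in the same way. Of all probe sets 0.0714% passed in ZES minus SES and 0% in ZES minus BMS. An unadjusted p under 0.05 was seen for 10.0% and 8.99% of them, in that order. Of 8 macrophage genes and 8 T and NK cell genes tested, 0 passed in ZES minus SES in limma, and 0 and 1 had an unadjusted p under 0.05. Their medians were -0.18 and -0.69. In ZES minus BMS 0 passed in limma, 1 macrophage gene and 2 T and NK cell genes were higher at an unadjusted p under 0.05, and the medians were -0.47 and 1.12. Of 17 interferon response genes 0 passed in limma and 2 were higher at an unadjusted p under 0.05, CXCL9, a chemokine for T cells (1.34 ± 0.50, limma adjusted p = 0.359), and the transcription factor IRF7 (0.89 ± 0.41, limma adjusted p = 0.478). The list median was 0.083. In ZES minus BMS 0 of the 17 passed in limma, 3 were lower at an unadjusted p under 0.05 and the median was -0.54. Of 8 heart muscle, 11 endothelial, 4 fat cell and 3 red cell genes tested 0 passed in ZES minus SES in limma, with medians of 0.38, 0.29, -0.050 and -0.25. At an unadjusted p under 0.05, 2 heart muscle genes were higher, the troponin subunits TNNC1 (2.85 ± 0.98, limma adjusted p = 0.305) and TNNI3 (2.89 ± 1.35, limma adjusted p = 0.494), and 1 red cell gene was lower. The other heart muscle genes tested ran from -0.62 for CKM to 1.76 for TTN, with MYL2 at -0.25 and MYH7 at 0.094. In ZES minus BMS 0 of these genes passed in limma, and 1 heart muscle and 3 endothelial genes were higher and 1 fat cell gene lower at an unadjusted p under 0.05. The part of heart muscle in the differences of the 4 genes was not tested.

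RPUSD1 gave 2 answers. Its brighter probe set had log2 signals of 13.10, 14.31, 13.54 and 13.27 on ZES 1 to 4, against 11.21, 10.32, 10.51 and 11.07 on SES 1 to 4 and 11.74, 11.63, 12.14 and 13.03 on BMS 1 to 4. The ZES arrays were above all others, by 1.89 over the SES range but by only 0.071 over the BMS range, where BMS 4 came close to ZES 1. The means were 13.56 ± 0.53 with ZES, 10.78 ± 0.43 with SES and 12.13 ± 0.64 with BMS (SD, n = 4). ZES minus SES was 2.78 ± 0.35, or 6.87-fold, and ZES minus BMS was 1.42 ± 0.35, or 2.68-fold. The SES range also lay below the BMS range, with SES minus BMS at -1.36 ± 0.35. On this probe set the ZES arrays were the highest and the SES arrays the lowest.

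The second RPUSD1 probe set did not separate the stents. Its log2 signal was 6.75, 8.57, 6.92 and 8.57 on ZES 1 to 4, against 6.11, 7.20, 6.15 and 7.52 on SES 1 to 4 and 2.89, 7.86, 7.72 and 4.72 on BMS 1 to 4. All 3 ranges overlapped, and 2 BMS arrays were not above background. ZES minus SES was 0.96 ± 0.91 and ZES minus BMS 1.90 ± 0.91. Over the 12 arrays the 2 probe sets had r = 0.23, and -0.013 with stent means removed. With both averaged, RPUSD1 differed by 1.87 in ZES minus SES and 1.66 in ZES minus BMS.

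The GAPDH control and the brighter RPUSD1 probe set were alike in that each SES array had a lower value of both than the other 8 arrays. They were unlike in that the control was higher with BMS than with ZES (means of 4.16 and 3.66), while the RPUSD1 probe set was lower (12.13 and 13.56). With the GAPDH control as a covariate ZES minus SES was 2.24. That control ran from 3.44 to 3.91 with ZES and from 2.33 to 3.02 with SES. These ranges do not overlap, so RNA quality and stent type cannot be told apart in ZES minus SES. The same limit holds for LOC396781, LOC100152327 and PLAC8. The smooth muscle list of 13 genes had array means of 10.57 to 13.62 with ZES, 9.77 to 12.45 with SES and 12.34 to 13.36 with BMS. Of these 13 genes 0 passed in ZES minus SES in limma, where 0.0714% of all probe sets passed. At an unadjusted p under 0.05, 9 were higher and 0 lower, against 5.66% and 4.38% of all probe sets. The median was 1.80, against 0.010 over all genes. In ZES minus BMS 0 passed, as for 0% of all probe sets. At an unadjusted p under 0.05, 0 were higher and 1 lower there, against 4.72% and 4.27%. The median was -0.30, against 0.012 over all genes. In SES minus BMS the median was -2.16, against -0.0064. The part of smooth muscle in the RPUSD1 difference was not tested.

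Enzymes that share the reaction of RPUSD1 had no call. Of all probe sets 0.0714% passed in ZES minus SES and 0% in ZES minus BMS, so nothing is read from this. An unadjusted p under 0.05 was seen for 10.0% and 8.99% of them, in that order. Of 15 listed pseudouridine synthases and proteins of the H/ACA particle, which guides such modification by small RNAs, 11 were on the array and 10 were tested. In ZES minus SES 0 passed in limma and 0 had an unadjusted p under 0.05, with 3 of the 10 above 0 and a median of -0.32 against 0.010 over all genes. In ZES minus BMS the same counts were 0 and 0, with a median of -0.0038. PUS3, which modifies transfer RNA, had a ZES minus SES difference of -1.47 ± 0.86, with ZES 2 at 3.02 and the other ZES arrays at 7.53 to 8.92. PUS7, NHP2 and RPUSD3, the last a mitochondrial relative of RPUSD1, had differences of -0.59 ± 0.37, -0.33 ± 0.39 and -0.32 ± 0.42. Adjusted p-values of these 4 genes in limma were 0.608, 0.638, 0.838 and 0.854. Of 17 other enzymes and factors of ribosomal and transfer RNA modification 0 passed in ZES minus SES in limma and 0 had an unadjusted p under 0.05, with a median of -0.19. FTSJ3, a methyltransferase of ribosomal RNA, had 0.62 ± 0.31 (limma adjusted p = 0.527).

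**Figure D4:**
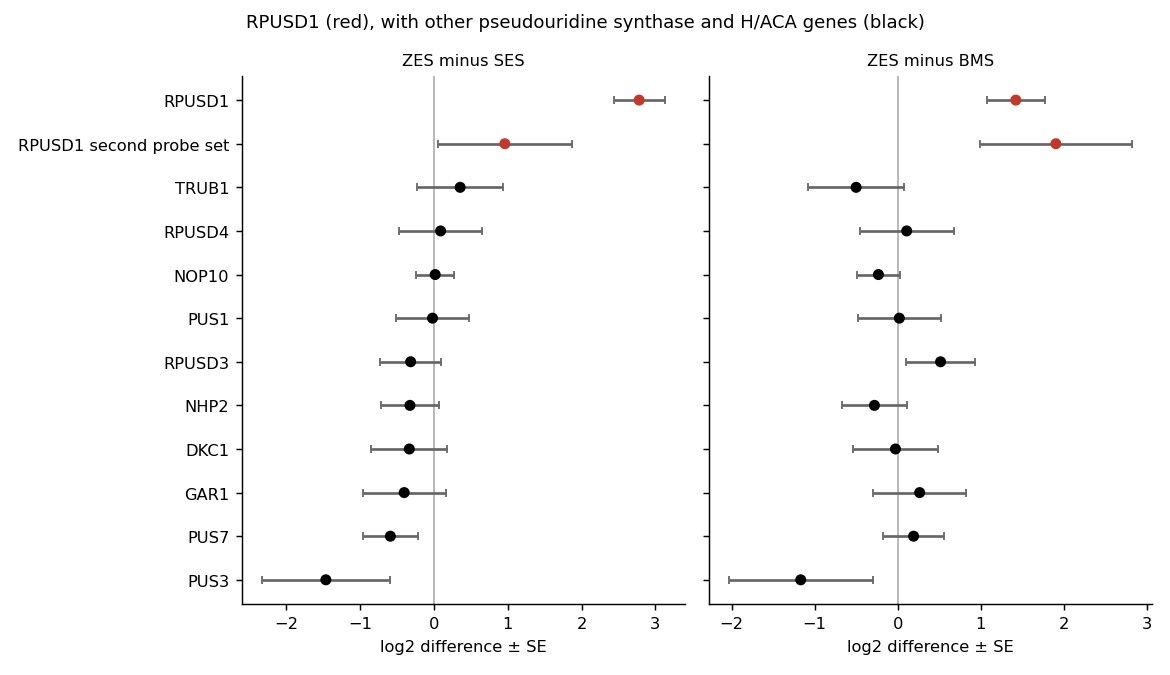
Log2 difference ± SE (horizontal axes) for the 2 RPUSD1 probe sets in red and for 10 pseudouridine synthase and H/ACA genes in black, ZES minus SES on the left and ZES minus BMS on the right. In ZES minus SES the brighter RPUSD1 probe set is at 2.78, its second probe set at 0.96 and the black points between -1.47 for PUS3 and 0.35 for TRUB1.

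The genes most like each of the 4 were found by Pearson's r over the 12 arrays among 5793 genes. Only the highest positive values were ranked, with the 4 genes themselves left out, so genes that ran opposite are not listed. The arrays share pigs and the stent differences that chose the genes, so these values are descriptions, and r with stent means removed is given beside each. PLAC8 was most like KIAA1143 (0.88 and 0.62), FAM184A (0.85 and 0.42) and the trypsin inhibitor gene UPTI (0.84 and 0.48). FAM184A and UPTI were above background on 1 ZES array each. RPUSD1 was most like TSR3 (0.91 and 0.63), an enzyme that modifies 18S ribosomal RNA, and then IQCC (0.90 and 0.55) and RPRD1A (0.89 and 0.67), a protein that binds RNA polymerase II. TSR3 also came first for LOC100152327 (0.89 and 0.86), before TRAPPC5 (0.88 and 0.84) and LOC100514340 (0.82 and 0.68). LOC396781 was most like DNAJC2 (0.90 and 0.85), LOC100525350 (0.85 and 0.82) and PTCD3 (0.81 and 0.82).

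TSR3, ranked first for 2 of the 4 genes, had smaller differences than they had. With PLAC8, TSR3 had r = -0.89, and -0.85 with stent means removed. Its mean was 10.25 ± 0.41 with ZES, 9.01 ± 0.18 with SES and 9.55 ± 0.44 with BMS (SD, n = 4), with ZES minus SES at 1.24 ± 0.33 (limma adjusted p = 0.172). DNAJC2, a ribosome-associated chaperone, differed by 0.31 ± 0.28 in ZES minus SES (limma adjusted p = 0.784), although its r with LOC396781 was the highest ranked for that gene.

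PLAC8 ran against the other 3 genes. It was chosen as low with ZES and they as high, so the choice set the sign of r over the 12 arrays. Its r over the 12 arrays was -0.95 with LOC100152327, -0.87 with LOC396781 and -0.83 with the brighter RPUSD1 probe set. With stent means removed these were -0.79, -0.59 and -0.62. The brighter RPUSD1 probe set had r = 0.82 with LOC100152327 and 0.72 with LOC396781, and 0.62 and 0.64 with stent means removed.

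The comparison of arteries within a pig did not use the differences between stents. In the 5 pigs with both segments LOC396781 was higher in the LAD than in the RCA in 5 of 5, by 2.10 and 0.71 in the ZES pigs, 0.021 in the SES pig and 0.26 and 0.88 in the BMS pigs. The mean difference was 0.79 ± 0.30 (estimate ± SE), with an adjusted p = 0.721 in limma, so it did not pass. LOC100152327 was higher in the LAD in 4 of 5 pigs, by 4.32 and 1.31 with ZES and by 1.22 and 0.32 with BMS, and differed by -0.48 in the SES pig. Its mean difference was 1.34 ± 0.54 (limma adjusted p = 0.722).

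PLAC8 differed between LAD and RCA by -0.49 ± 0.43, the brighter RPUSD1 probe set by 0.45 ± 0.28 and the second by 1.36 ± 0.89 (limma adjusted p = 0.818, 0.765 and 0.774). In all, 0 of the 5 probe sets passed between arteries in limma, as for 0% of all probe sets, and 2 of 5, both higher in the LAD, had an unadjusted p under 0.05. Of all probe sets 6.86% had one, with 3.80% higher and 3.07% lower. ZES 1, the lowest ZES array of LOC396781 and LOC100152327, was an RCA segment. Without ZES 1, and so without its pig in this comparison, the LAD minus RCA difference was 0.47 for LOC396781 and 0.59 for LOC100152327. With the arrays of high 28S signal left out it was 0.53 and 0.38, and that of PLAC8 was -0.04.

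**Figure D5:**
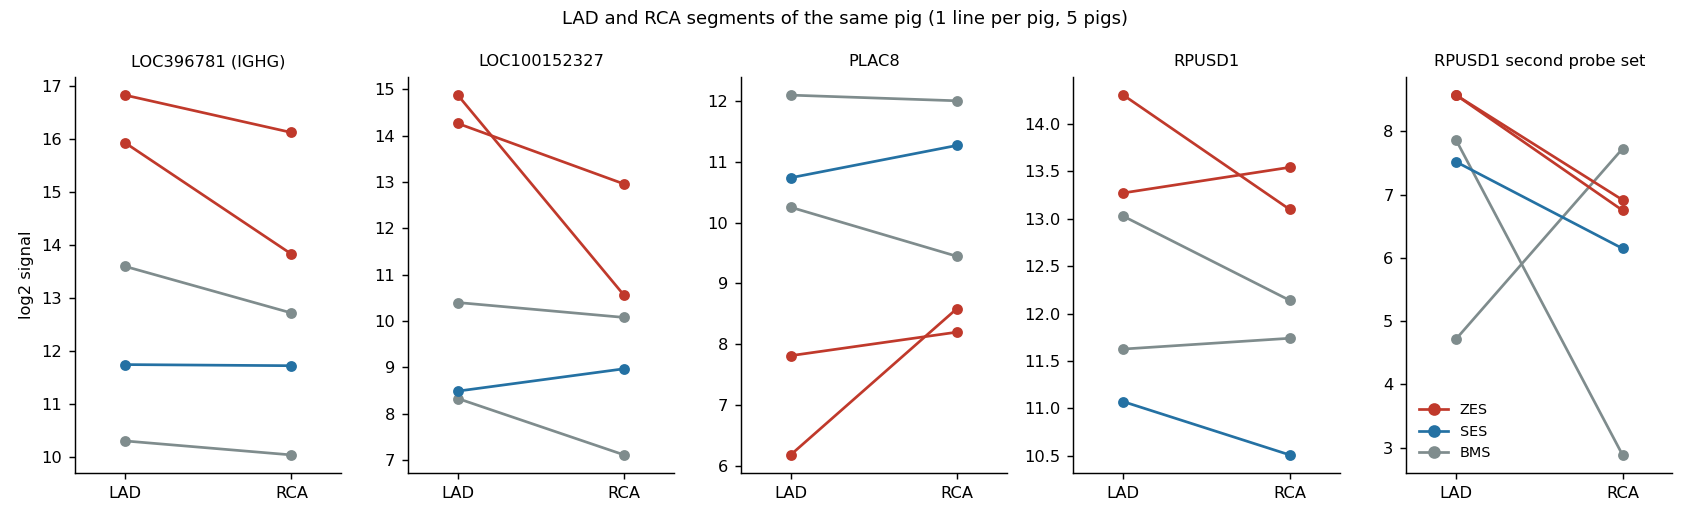
Log2 signal (vertical axis) of LAD and RCA segments, with 1 line per pig for 5 pigs and the stent type as colour. All 5 lines of LOC396781 slope down from LAD to RCA, by 0.021 to 2.10.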

How the data were processed

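Total RNA of dissected stented artery was amplified, labelled with biotin and hybridised to the Affymetrix porcine array. The authors deposited log2 signals. Per the submitters' processing notes these came from MAS5 in Affymetrix Expression Console 5.0; the logarithm's base and the scaling were read from the values. How low signals were treated is not given in the sources used here. Of 24123 probe sets, 124 controls and then the 30% with the lowest mean were left out, which left 16799. Names came from the platform's annotation (10069 probe sets with 1 symbol, 198 with several, 13732 with none); a listed gene was represented by its brightest probe set, and names and neighbours of the 4 genes came from RefSeq (Sscrofa11.1).

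The stent comparisons came from a single limma model (version 3.58.1, with R 4.3.3 and statmod 1.5.0) of all 12 arrays, in which pigs were random blocks (duplicateCorrelation, within-pig correlation -0.032) and eBayes used a variance trend. LAD and RCA were compared in 10 arrays of 5 pigs with the pig as a fixed block. P-values are two-sided and Benjamini-Hochberg adjusted over all probe sets tested, with a threshold of 0.05; the procedure was tested on simulated data. Each stent type had 2 pigs, so the p-values and SEs of the stent comparisons mostly measure how segments vary. The number of arrays limits the precision. The 4 genes and the gene lists were chosen with earlier results of these data known. Named genes are the 4 genes, the 3 genes most like each, up to 4 genes of a list with the smallest p in ZES minus SES, and genes that define the tissue; lists of endothelial, fat, red cell, heart and smooth muscle genes served as checks. The alternatives were a filter, normalization, pseudocount of 32, block, trend, weights, covariates (artery among them) and arrays or pigs left out.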

Additional observations from a re-analysis of the deposited data

Results flagged for a closer look

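PLAC8 differed between LAD and RCA in opposite directions in ZES and BMS pigs. LAD minus RCA was -2.41 in the pig of ZES 1 and 2, which holds the ZES array of high 28S signal, and -0.39 in the other ZES pig, with a mean of -1.40. It was -0.53 in the SES pig with both arteries and 0.093 and 0.81 in the BMS pigs. The difference between the stent types was not tested.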

How the results depend on the processing

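With 12 probe sets changed in ZES minus SES, 0 in ZES minus BMS and 114 in SES minus BMS in limma, the count in ZES minus SES was 48 with no filter, 47 with the pseudocount, 306 with array weights, 6 after quantile normalization, 6 after median centring, 6 with arrays as independent, 5 with the spike-in covariate, 4 with means per pig, 4 without the arrays of high 28S signal, 4 with artery as a covariate (both chosen after seeing the data), and 0 with no variance trend or with the GAPDH covariate. The count in SES minus BMS was 183 with no filter, 199 with the pseudocount, 673 with array weights, 64 with means per pig, 26 without the arrays of high 28S signal, 7 with artery as a covariate, 19 with no trend and 0 with either covariate, and in ZES minus BMS it was 3 with no filter. Leaving out 1 array or pig gave 0 (without SES 3) to 158 (without SES 4) in ZES minus SES, 0 to 71 (without the pig of BMS 3 and 4) in ZES minus BMS and 0 (without SES 3) to 415 (without SES 4) in SES minus BMS. LAD minus RCA had 0 calls under each alternative run for it. It was not rerun with arrays as independent, with means per pig or with any covariate. Nor was it rerun without SES 1, SES 2 or their pig, which had no LAD. No difference of the 4 genes reversed. Those of LOC396781 and PLAC8 in ZES minus BMS were 2.52 to 5.50 and -4.36 to -2.16 with an array or pig left out. LOC396781 was 5.54 in ZES minus BMS with the spike-in covariate, and RPUSD1 in ZES minus SES was 2.24 with the GAPDH covariate and 1.87 with its probe sets averaged. With artery as a covariate the ZES minus SES differences were 3.56 for LOC396781, 4.11 for LOC100152327, -3.14 for PLAC8, 2.84 for RPUSD1 and 0.55 for its second probe set. The causes were not tested. No paired analysis was possible because each pig carried 1 stent type and the labels give no replicate numbers shared between stent types. The second RPUSD1 probe set was above background on all ZES and SES arrays and on 2 of 4 BMS arrays. Its SE of 0.91 was the largest of the 5 probe sets in the stent comparisons.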
